A study of Homo sapiens with 20 samples.

Results

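Cohesin sites of CHM13 cells were divided by the SA subunit found with them. Of 73739 RAD21 peaks on chromosomes 1 to 22 and X of hg38, 31793 (43.1%) overlapped both an SA1 and an SA2 peak by at least 1 bp, 10416 (14.1%) overlapped an SA2 peak only, 3702 (5.02%) an SA1 peak only and 27828 (37.7%) neither. These 4 groups are called both, SA2 only, SA1 only and neither below. The 73739 peaks belong to 188806 peaks in the 6 hg38 lists of the series. ChIP-seq, which recovers DNA crosslinked to a protein with an antibody, was performed for RAD21, SA1 and SA2 in CHM13, a telomerase-immortalised line from a complete hydatidiform mole, and in RPE-1, a telomerase-immortalised line from retinal pigment epithelium. CHM13 had 3 replicates and RPE-1 had 2 replicates of each subunit, with total chromatin as input, and neither line was treated. The RAD21 antibody differed between the lines, whereas those to SA1 and SA2 were shared. A complete mole is placental tissue with a wholly paternal genome. Sonication also differed between the lines, so line and preparation cannot be told apart.

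Cohesin is a ring of SMC1A, SMC3 and the kleisin RAD21, to which either SA1 (the product of STAG1) or SA2 (the product of STAG2) binds. RAD21 is shared by both forms, and in somatic cells every cohesin ring is thought to carry an SA subunit. CTCF, a zinc-finger protein, halts loop-extruding cohesin at its motif, where RAD21 ChIP-seq peaks are typically found, while enhancers carry cohesin together with transcription factors such as AP-1, the dimer of FOS and JUN proteins. A RAD21 peak without an SA peak therefore means here only that no SA peak was called in the deposited lists. The lists hold positions but no height or read depth and pool the replicates, so no spread between replicates can be given. Intervals are Wilson intervals for shares, Newcombe intervals for differences and order-statistic intervals for medians, all at 95%, and they cover counting error only. Counts over 23 chromosomes are given beside them as a description.

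The sequence at the centre of selected sites shows how the groups were compared. These sites were picked for a match to the CTCF motif and are not typical of their groups. For each group the peak whose exact match to the 12-base CTCF core lay nearest to its centre is shown, among peaks over 1 kb from any exon, as 120 bases of the forward strand of hg38 with the match in capitals. The neither site lay in an intron of DST, the SA1 only site in an intron of R3HDM2, the SA2 only site in intergenic sequence 4.06 kb from the start of KNL1, and the both site in an intron of SUGCT. The core was on the reverse strand in all but the SA2 only site.
neither, in DST, chr6:56595637-56595756: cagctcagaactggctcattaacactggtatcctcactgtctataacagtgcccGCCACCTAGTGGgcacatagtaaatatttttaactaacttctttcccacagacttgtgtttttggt
SA1 only, in R3HDM2, chr12:57277086-57277205: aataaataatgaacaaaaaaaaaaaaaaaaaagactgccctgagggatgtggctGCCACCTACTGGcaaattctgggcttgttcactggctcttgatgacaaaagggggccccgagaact
SA2 only, near KNL1, chr15:40589900-40590019: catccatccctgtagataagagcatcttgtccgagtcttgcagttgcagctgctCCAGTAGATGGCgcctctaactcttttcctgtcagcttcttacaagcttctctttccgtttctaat
both, in SUGCT, chr7:40604966-40605085: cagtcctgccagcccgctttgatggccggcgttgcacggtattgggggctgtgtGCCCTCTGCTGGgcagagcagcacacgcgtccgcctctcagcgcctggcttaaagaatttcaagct

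The same 120 bases are shown for sites without a CTCF core, with matches to the AP-1 motif TGANTCA in capitals. Among the peaks considered for display, all over 1 kb from any exon, the widest neither peak without a core was 3773 bp wide. It lay in an intron of the noncoding gene LINC01060, in a tandem repeat whose unit carries the AP-1 letters. These letters appear 2 times in the stretch shown. The sites in introns of DLEU7 and GRIA1 had the AP-1 match nearest to the centre of a neither and an SA2 only peak, and were chosen after the motif shares had been seen. None of the 7 sites overlapped a RAD21, SA1 or SA2 peak of RPE-1 cells. Of all 73739 RAD21 peaks, 19.5% overlapped an RPE-1 RAD21 peak, 14.1% an RPE-1 SA1 peak and 8.50% an RPE-1 SA2 peak. The RPE-1 RAD21 share was 1.16% for neither and 3.13% for SA2 only peaks, so 0 of 7 sets these sites apart in no way.
neither, in LINC01060, chr4:188447741-188447860: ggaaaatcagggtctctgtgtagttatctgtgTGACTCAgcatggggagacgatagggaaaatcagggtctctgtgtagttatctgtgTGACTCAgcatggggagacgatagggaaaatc
neither, in DLEU7, chr13:50691808-50691927: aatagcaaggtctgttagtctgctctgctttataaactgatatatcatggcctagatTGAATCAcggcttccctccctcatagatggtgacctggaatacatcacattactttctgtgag
SA2 only, in GRIA1, chr5:153623946-153624065: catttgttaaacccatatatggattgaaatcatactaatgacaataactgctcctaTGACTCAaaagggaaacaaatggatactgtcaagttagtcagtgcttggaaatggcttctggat

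The CTCF core was found mainly where both SA subunits were called. Within 500 bp at the peak centre, a core with up to 1 mismatch on either strand was present in 44.6% of both peaks (44.1 to 45.2%), in 32.4% of SA1 only peaks (31.0 to 34.0%), in 10.8% of SA2 only peaks (10.2 to 11.4%) and in 12.2% of neither peaks (11.8 to 12.6%). Of all 500-bp windows of hg38 without N, 2.61% held it. The difference, neither minus both, was -32.4 percentage points (-33.1 to -31.7), and neither peaks were lower on 23 of 23 chromosomes. SA1 only peaks were 21.7 points above SA2 only peaks (20.1 to 23.3), and were higher on 23 of 23 chromosomes. SA1 only minus both was -12.2 points (-13.8 to -10.5). Neither and SA2 only peaks were close to each other, 1.45 points apart (0.734 to 2.15), with neither peaks higher on 16 of 23 chromosomes.

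Exact matches were rarer and kept this order, with 14.1% of both, 8.32% of SA1 only, 2.63% of neither and 2.28% of SA2 only peaks, against 0.183% of the windows of hg38. Read the other way, 77.8% of the 5761 RAD21 peaks with an exact core overlapped both SA subunits and 12.7% overlapped neither. Where a match was present, it lay near the peak centre in every group. The exact match was a median of 26 bp from the centre in both peaks (25 to 27 bp), 26 bp in neither peaks (23 to 28 bp), 26.5 bp in SA1 only peaks (24 to 31 bp) and 22 bp in SA2 only peaks (19 to 25 bp). These are 733 neither, 308 SA1 only, 237 SA2 only and 4483 both peaks. For the wider set with up to 1 mismatch, the median was 33 bp in neither (31 to 35 bp) and in SA2 only peaks (31 to 38 bp), 29 bp in both (28 to 30 bp) and 27 bp in SA1 only peaks (25 to 30 bp), so neither peaks lay slightly further out than both peaks there.

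**Figure D1:**
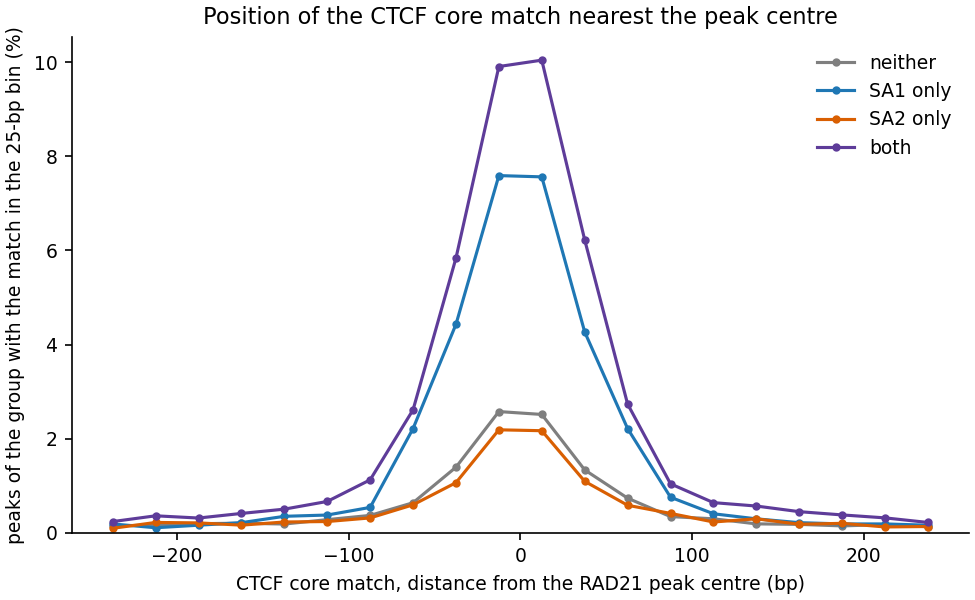
The share of each group's RAD21 peaks (vertical axis, percent) whose nearest CTCF core match, with up to 1 mismatch, fell in each 25-bp bin of distance from the peak centre (horizontal axis, bp). Lines are the 4 groups. All 4 peak at the centre, at 10.0% of both peaks, 7.59% of SA1 only peaks, 2.58% of neither peaks and 2.19% of SA2 only peaks in their highest bin.

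AP-1 letters were instead most frequent in the groups with the fewest CTCF cores. TGANTCA was present at the centre of 44.4% of SA2 only peaks (43.4 to 45.3%) and 41.3% of neither peaks (40.7 to 41.8%), but of 21.4% of both peaks (20.9 to 21.8%) and 21.0% of SA1 only peaks (19.7 to 22.3%), against 14.8% of windows of hg38. Neither peaks were 19.9 points above both peaks (19.2 to 20.6), on 23 of 23 chromosomes. SA1 only minus SA2 only was -23.4 points (-25.0 to -21.7), with SA1 only lower on 23 of 23. SA1 only minus both was -0.411 points, with an interval from -1.77 to 1.00, so these groups were not told apart. Among the 20485 RAD21 peaks with AP-1 letters and no CTCF core, 52.7% were neither, 23.1% both, 21.2% SA2 only and 3.00% SA1 only. Among the 16715 peaks with a core and no AP-1 letters, 72.5% were both, 16.2% neither, 6.22% SA1 only and 5.08% SA2 only. Both motifs were absent from 49.0% of neither, 51.0% of SA1 only, 47.5% of SA2 only and 40.5% of both peaks.

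Other motifs divided the groups in smaller steps. TEAD letters (ACATTCC), bound by the TEAD factors of Hippo signalling, followed AP-1, with 13.7% of SA2 only, 11.4% of neither, 8.99% of both and 8.81% of SA1 only peaks against 7.87% of windows. The ETS motif CCGGAAG and the NRF1 motif GCGCANGCG, both common in promoters of housekeeping genes, were highest in SA1 only peaks. ETS letters were in 7.94% of SA1 only, 3.74% of neither, 2.70% of both and 2.66% of SA2 only peaks against 1.16% of windows, and NRF1 letters in 3.30%, 1.62%, 0.887% and 0.922% against 0.152%. TFAP2 letters (GCCNNNGGC), bound by the TFAP2 factors, among them regulators of trophoblast, were in 17.02% of SA1 only and 16.7% of neither peaks, in 14.6% of SA2 only and 13.0% of both peaks, and in 7.12% of windows. SP/KLF letters (GGGGCGGG) were in 7.48% of SA1 only, 7.18% of neither, 5.08% of SA2 only and 4.18% of both peaks, against 1.16% of windows. Split by distance from gene starts, SA1 only peaks were not the highest group for TFAP2 or SP/KLF. Within 1 kb of a protein-coding gene start, TFAP2 letters were in 44.7% of SA1 only and 55.3% of neither peaks. SP/KLF letters there were in 31.2% and 43.3%. Over 1 kb from any gene start, TFAP2 letters were in 10.8% (SA1 only) to 12.2% (neither) of peaks. SP/KLF letters there were in 2.35% (SA2 only) to 2.99% (neither). GATA letters (AGATAA) were below the windows' share of 32.0% in all 4 groups, at 25.1% to 29.1%. YY1 letters (AAGATGGC) were in 1.82% to 3.48% of the groups and E-box letters (CACGTG) in 5.03% to 7.08%, against 2.12% and 4.55% of windows. Base composition moved little, with median G+C of the window at 43.6% in neither, 44% in SA1 only, 42% in SA2 only and 42.6% in both peaks, and 40.9% over the windows of hg38. A match is a description of the letters and shows no binding.

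**Figure D2:**
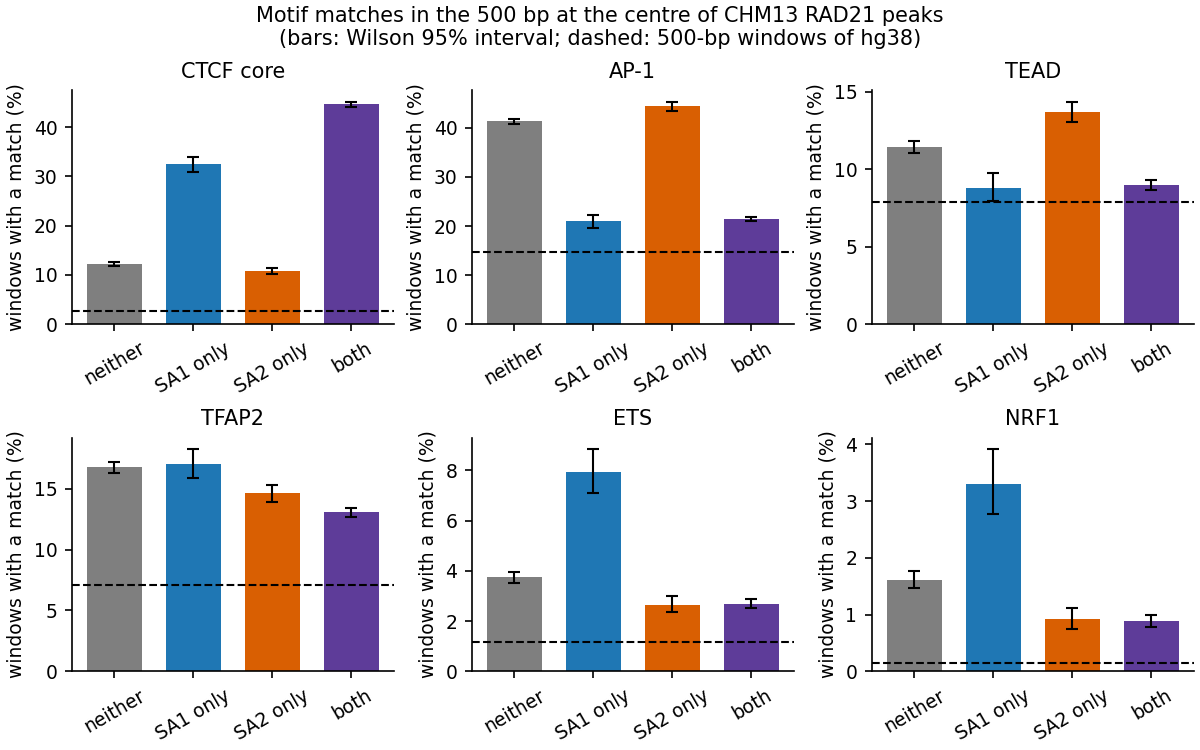
The share of 500-bp windows at RAD21 peak centres that held each motif (vertical axes, percent) in the 4 groups, with Wilson 95% intervals as error bars and the share of 500-bp windows of hg38 as a dashed line. CTCF core was highest in both peaks (44.6%), AP-1 in SA2 only (44.4%) and neither (41.3%) peaks, and ETS and NRF1 in SA1 only peaks (7.94% and 3.30%).

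The groups differed in the width of the RAD21 peak. The median width was 575 bp in neither peaks (572 to 578 bp), 608 bp in SA1 only (602 to 615 bp), 762 bp in SA2 only (755 to 769 bp) and 809 bp in both peaks (807 to 812 bp), and neither peaks were narrower than both peaks on 23 of 23 chromosomes. The groups overlapped widely. The interquartile range ran from 462 to 755 bp in neither peaks and from 695 to 1041 bp in both peaks. Ordered by width in 10 equal classes, the narrowest class (253 to 447 bp) was 81.8% neither and 4.90% both, and the seventh (787 to 862 bp) was 19.2% neither and 66.2% both. Above it the neither share rose again to 25.2% in the ninth class (1007 to 1329 bp), before 15.7% in the widest. SA2 only was highest, at 19.2%, in the ninth class, and SA1 only, at 9.02%, in the third.

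**Figure D3:**
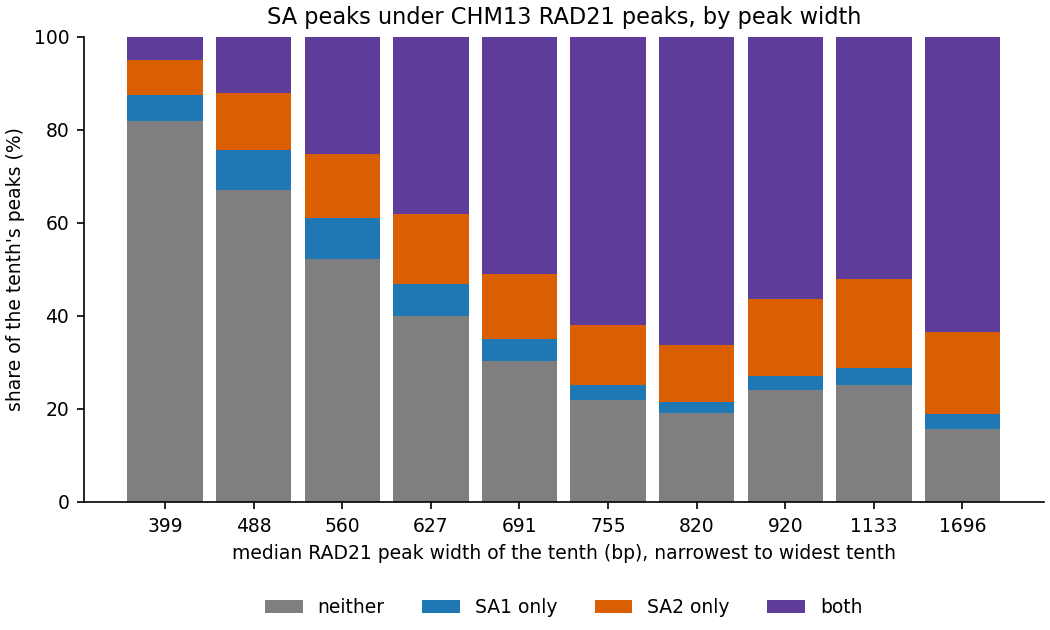
Stacked bars of the share of RAD21 peaks (vertical axis, percent) that were neither, SA1 only, SA2 only or both, in 10 equal classes of RAD21 peak width (horizontal axis, median width in bp). The neither share falls from 81.8% at a median of 399 bp to 19.2% at 820 bp and is 25.2% at 1133 bp.

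Width and motif were read together in 3 equal width classes. The CTCF core difference was present in each. Among the narrowest peaks the core was in 17.2% of 15889 neither and 45.2% of 3933 both peaks, in the middle class in 6.54% of 6697 and 57.7% of 13563, and among the widest in 4.46% of 5242 and 32.0% of 14297. SA1 only peaks had it in 41.2%, 36.4% and 6.82% of peaks, and SA2 only peaks in 22.9%, 8.93% and 4.04%, from narrowest to widest. The SA1 only and SA2 only shares of the widest class thus lay closer together than those of the narrower classes. AP-1 letters were in 40.8%, 49.0% and 32.8% of neither peaks and in 15.2%, 17.4% and 26.9% of both peaks. In SA2 only peaks the AP-1 share was 33.8%, 54.6% and 43.3%, the highest of the 4 groups in the middle and widest classes.

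SA peaks that overlapped a RAD21 peak, as the groups require, were compared with it in width and position. The widths and offsets cover only these SA peaks. The SA1 peak of an SA1 only site was a median of 458 bp wide (451 to 463 bp) with its centre a median of 40 bp from the RAD21 centre, and at both sites it was 637 bp wide with its centre 35.5 bp away. The SA2 peak was 523 bp wide (519 to 528 bp) and 52 bp away at SA2 only sites, and 637 bp wide and 35 bp away at both sites. An SA peak lay wholly inside the RAD21 peak at 69.2% of SA1 only sites and 74.1% of SA2 only sites, and at both sites in 81.8% for SA1 and 82.8% for SA2. For neither peaks, the nearest SA peak of either kind was a median of 9922 bp away (9713 to 10110 bp). Only 561 of them (2.02%) had an SA peak within 500 bp, and 50.2% had it within 10 kb.

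Protein-coding gene starts were most frequent in SA1 only peaks. The peak centre lay within 1 kb of a GENCODE 44 protein-coding gene start for 590 SA1 only peaks (15.9%, 14.8 to 17.2%), 2566 neither peaks (9.22%, 8.89 to 9.57%), 676 SA2 only peaks (6.49%, 6.03 to 6.98%) and 1568 both peaks (4.93%, 4.70 to 5.18%). SA1 only exceeded SA2 only by 9.45 points (8.20 to 10.7) and was higher on 22 of 23 chromosomes, and neither exceeded both by 4.29 points (3.88 to 4.71), on 23 of 23. Of the 5400 RAD21 peaks within 1 kb of a start, 47.5% were neither, 29.0% both, 12.5% SA2 only and 10.9% SA1 only. From 1 to 10 kb, 48.6% of 8685 peaks were both and 35.8% neither. SA2 only rose to 16.4% of the 26505 peaks over 100 kb from a start.

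**Figure D4:**
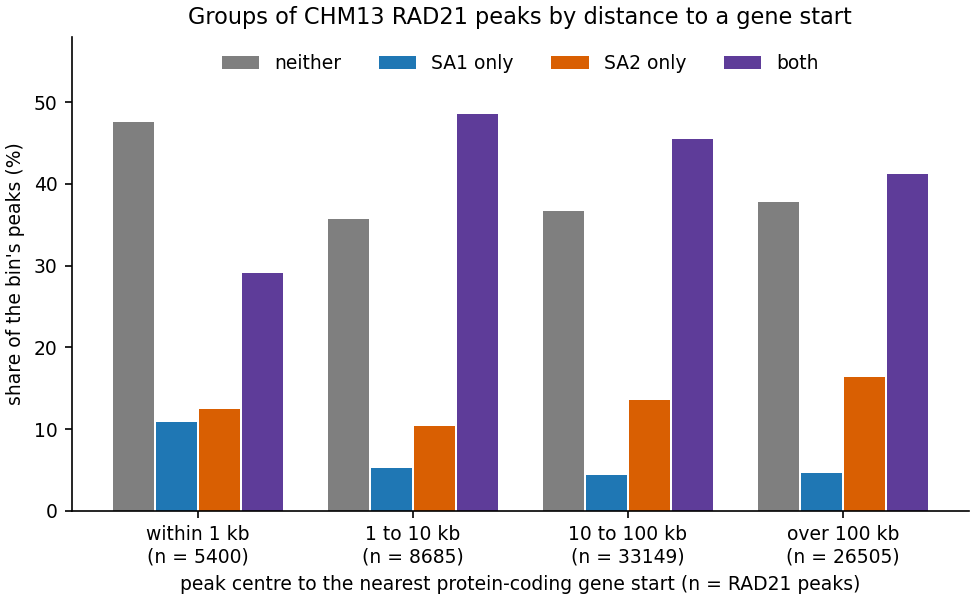
The share of RAD21 peaks (vertical axis, percent) in each group, in 4 bins of distance from the peak centre to the nearest protein-coding gene start (horizontal axis). Within 1 kb neither was the most frequent group at 47.5%, and in the 3 other bins both was, at 48.6%, 45.5% and 41.3%.

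CpG-rich windows followed gene starts, at 18.0% of SA1 only, 11.7% of neither, 8.38% of SA2 only and 7.44% of both peaks. Over 1 kb from any gene start these shares were 3.72%, 3.42%, 2.76% and 3.58%, and ETS letters were in 2.01% to 2.34% of the groups. The ETS difference was therefore seen at gene starts, where ETS letters were in 33.9% of 590 SA1 only peaks (30.2 to 37.8%), 15.8% of 2566 neither peaks (14.5 to 17.3%), 11.7% of both and 9.76% of SA2 only peaks. NRF1 letters at starts were in 16.1%, 11.7%, 8.48% and 7.84% in the same order of groups. Away from starts AP-1 letters were in 45.3% of neither, 47.1% of SA2 only, 24.5% of SA1 only and 22.4% of both peaks, while at starts they were in 7.48%, 10.7%, 4.24% and 6.70%. The CTCF core at starts was in 28.8% of both, 17.6% of SA1 only, 13.2% of SA2 only and 12.3% of neither peaks.

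By gene, 5948 of 19970 protein-coding genes (29.8%) had a RAD21 peak centred within 1 kb of the start. The peak nearest the start was neither for 2799 genes (14.0% of all), SA1 only for 741 (3.71%), SA2 only for 713 (3.57%) and both for 1695 (8.49%). Among genes with a peak these are 47.1%, 12.5%, 11.99% and 28.5%. Another annotated gene starting within 1 kb on the opposite strand was found for 51.1% of the SA1 only genes (47.6 to 54.7%), 34.8% of neither, 30.7% of both and 26.4% of SA2 only genes, and for 23.2% of genes without a RAD21 peak.

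The widest RAD21 peaks at gene starts in each group were read by gene. The widest neither peak covered the start of HMGA2, an architectural chromatin protein of embryonic tissue, at 4980 bp, and was followed by TLE3 (4495 bp), a transcriptional co-repressor, CPEB2 (4391 bp), an mRNA polyadenylation factor, IGF2BP1 (3933 bp), an oncofetal RNA-binding protein, and BMPR1A (3766 bp), a BMP receptor. These broad peaks had no SA1 and no SA2 peak anywhere under them. The widest SA1 only peaks were at FZD8 (4933 bp), a Wnt receptor, HS3ST3A1 (3465 bp), a heparan sulfate sulfotransferase, BCL6 (3361 bp), a transcriptional repressor, SORT1 (3326 bp), a sorting receptor, and PBX3 (3311 bp), a homeodomain factor. The widest SA2 only peaks were at NT5E (5423 bp), which encodes CD73, SP3 (4145 bp), a GC-box factor, TRERF1 (4019 bp), a transcriptional regulator, and EEA1 (3831 bp), an endosomal tether. At FZD8 1 SA1 peak lay under the RAD21 peak and at NT5E 2 SA2 peaks. The widest both peaks were at MARCKS (7033 bp), an actin regulator, FAT1 (6568 bp), a cadherin, PCDH18 (6429 bp), a protocadherin, IRF2BP2 (6411 bp), a co-repressor, and TRIB2 (6267 bp), a pseudokinase. None of these peaks had a CTCF core or AP-1 letters in the 500 bp at its centre, which is a small part of such wide peaks. Among all gene-start peaks AP-1 letters were in 4.24% (SA1 only) to 10.7% (SA2 only) of a group, and the core in 12.3% (neither) to 28.8% (both).

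Lists of genes that fit the line or the subunits were read against the 29.8% of all protein-coding genes with a RAD21 peak and, among those, the 47.1% neither, 12.5% SA1 only, 11.99% SA2 only and 28.5% both. Clustered protocadherins, the chromosome 5 adhesion genes whose promoters carry CTCF sites, had a RAD21 peak at 25 of 53 starts. It was both at 17 of the 25, including PCDHB10 and PCDHB12, SA1 only at 4, SA2 only at 3, including PCDHA3 and PCDHA4, and neither at 1, PCDHB4, which was named after its value was seen. These paralogues are similar in sequence, so reads could be shared between them. Ribosomal protein genes had a peak at 29 of 82 starts, with 13 neither, 8 both, such as RPL10A, 8 SA1 only, such as RPL14, and 0 SA2 only. The share with a peak (35.4%) was near that of all genes. Zinc-finger genes of chromosome 19 had a peak at 52 of 246 starts, of which 34 were neither (ZNF160 and ZNF180 among them), 7 both (ZNF20), 6 SA2 only and 5 SA1 only (ZNF181). Some neighbouring genes of this list shared a neither peak, so these are counts of starts. HOX genes had 7 of 39, with 3 neither (HOXA10 and HOXA6 among them), 3 both (HOXB5 and HOXC10 among them) and 1 SA1 only (HOXD8, named after its value was seen). Histone genes of chromosome 6 had 6 of 55, with 5 neither and 1 SA1 only (H3C8), and H2AC8 and H2BC8 shared a peak. Olfactory receptor genes, most of which are silent outside the nose, had 4 of 415: OR14A2 neither, OR6J1 SA2 only, OR51D1 and OR52N2 both.

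Genes of cohesin and its regulators had a RAD21 peak at 9 of 25 starts (36%, against 29.8% of all genes). RAD21, SMC1A and SMC3, which encode the ring, had none. Both SA subunits were called at STAG1 (2469 bp), STAG2 (979 bp), CTCF (1495 bp), PDS5A (2106 bp) and PDS5B (2190 bp), which encode SA1, SA2, CTCF and the regulatory PDS5 proteins. Neither was called at NIPBL (942 bp), the loader, and WAPL (933 bp), the release factor. SA2 only was called at ESPL1 (835 bp), which encodes separase, and RAD21L1 (1240 bp), a meiotic kleisin. Trophoblast genes had a peak at 12 of the 36 found, of 37 listed (33.3%, near the share of all genes). GATA2, ITGA5 and TEAD4 were neither, as were KRT8 and KRT18, which share a peak, and TP63, KRT7 and ITGA6 were SA2 only. EGFR, LIFR, PEG10 and SDC1 were both. AP-1 and early response genes had 9 of 20: FOS, FOSL1 and KLF4 were neither, JUNB was SA2 only, and DUSP1, FOSL2, IER2, JUN and JUND were both. The RAD21 peak at JUN was 5456 bp wide and that at FOS 1729 bp. SA1 only was called at 0 genes of these 3 lists, which are short, and at 3.71% of all genes. Neural genes had 3 of 30: MAP2 neither, GAD1 and SYT1 both.

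RAD21 peaks of neither and SA2 only lay closer to another RAD21 peak. The median gap to the nearest RAD21 peak was 5519 bp for neither (5412 to 5639 bp), 5750 bp for SA2 only (5547 to 5907 bp), 7684 bp for both (7533 to 7828 bp) and 8292 bp for SA1 only (7805 to 8738 bp), and neither was below both on 23 of 23 chromosomes. The nearest RAD21 peak of an SA2 only peak was neither in 42.8%, both in 32.7%, SA2 only in 22.1% and SA1 only in 2.39%. For SA1 only peaks it was both in 57.0%, neither in 28.1%, SA1 only in 8.40% and SA2 only in 6.51%. SA2 only makes up 14.1% and SA1 only 5.02% of all RAD21 peaks.

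Runs of consecutive RAD21 peaks of the same group lay at individual loci. Runs of 5 or more peaks held 10.2% of neither, 0% of SA1 only, 1.51% of SA2 only and 18.3% of both peaks. Run lengths were not compared with those of a random order of the groups, so the loci are named by length only. Motif counts in the runs are small and are to be read against the group shares. AP-1 letters were in 41.3% of all neither and 44.4% of all SA2 only peaks, and a CTCF core in 12.2% and 10.8%. A neither run of 12 peaks, the greatest length in this group, lay over IAH1 and ADAM17, the sheddase of TNF, at chr2:9436729-9613767, with AP-1 letters in 5 peaks and a CTCF core in 2. Runs of 11 lay over GNG12 with GADD45A nearest, over NAV1 with IPO9 nearest, and over ZSWIM4. The longest SA2 only run, of 8 peaks, spanned GNAI1, a G-protein subunit, at chr7:79823104-80003611, and had AP-1 letters in 5 peaks and a CTCF core in 0. E2F7, a cell-cycle repressor, was in an SA2 only run of 7 peaks with AP-1 letters in 6. Runs of 6 lay nearest to SOX9, over LINC00511, with AP-1 letters in 5, and nearest to DUSP6, an ERK phosphatase, and POFUT2. No SA1 only run exceeded 4 peaks. Runs of that length lay over the microRNA host gene MIR137HG with DPYD nearest, near TSHZ3, over a cluster of zinc-finger genes with the starts of ZNF35, ZNF502, ZNF501, KIAA1143 and KIF15, over KHDRBS2, and at CNTNAP3C. The last of these, at chr9:61120765-62551132, spanned 1430 kb and that over KHDRBS2, at chr6:60249721-62284291, 2035 kb, and both lie beside centromeres.

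The longest both runs lay in centromeric sequence and on the X chromosome. A run of 33 peaks at chr4:49760697-51740846, with DCUN1D4 nearest, had a median width of 387 bp and 0 CTCF cores, and a run of 15 at chr6:58735014-59685437, with PRIM2 nearest, had a median of 367 bp and 0 cores. Both lie in centromeric sequence of hg38, as does part of a run of 15 on chromosome 1 that spans 18672 kb, with H3-7 nearest. Their width was below the median of 809 bp for both peaks. On CHM13 v1.0, the paper found a negligible density of cohesin peaks in α-satellite arrays, the repeats of centromeres. The runs here come from the hg38 lists only and were not looked up on that assembly. The other long runs were on the X chromosome. A run of 26 consecutive both peaks at chrX:131626724-132023187, with a median width of 875 bp, spanned FIRRE, a long noncoding RNA gene. It was 396 kb long and also overlapped HDGFP1, MCRIP2P1, PNKDP1 and RNA5SP514, so not all of its peaks need lie in FIRRE. A run of 24 both peaks at chrX:115843937-115989317, with a median of 672.5 bp, lay at DANT1 and DANT2, the noncoding genes of the DXZ4 repeat array. FIRRE and DXZ4 are known for arrays of CTCF sites. The core was nevertheless in 4 of the 26 and 1 of the 24 centre windows, below its share of 44.6% in all both peaks. RPE-1 cells had a RAD21 peak at 14 of the 26 and 19 of the 24. Reads in such repeats, and in centromeric sequence, can map to several copies, which a peak list does not show. By chromosome, the both share ran from 38.2% on chromosome 21 to 50.4% on X and the neither share from 33.9% on X to 40.9% on 21, while chromosome 19 had the highest SA1 only (7.11%) and the lowest SA2 only share (8.60%).

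RPE-1 cells, whose lists were not used to form the groups, shared mainly the both sites. An RPE-1 RAD21 peak overlapped 42.1% of both peaks (41.6 to 42.7%), 8.73% of SA1 only (7.86 to 9.68%), 3.13% of SA2 only (2.81 to 3.48%) and 1.16% of neither peaks (1.04 to 1.30%). The difference between neither and both, -41.0 points (-41.5 to -40.4), was seen on 23 of 23 chromosomes and in each width class. In the middle width class 48.1% of both and 0.806% of neither peaks overlapped, and in the narrowest class 20.0% and 1.55%. Few sites of a single SA subunit had an SA peak in RPE-1 cells. At SA1 only sites RPE-1 SA1 was called at 61 (1.65%) and RPE-1 SA2 at 13 (0.351%), and at SA2 only sites RPE-1 SA1 at 25 (0.240%) and RPE-1 SA2 at 20 (0.192%). On the CHM13 v1.0 lists the order at SA2 only sites turned, with RPE-1 SA1 at 28 (0.267%) and RPE-1 SA2 at 54 (0.515%), and at SA1 only sites it was kept, at 79 (2.16%) and 23 (0.629%). The RPE-1 lists are shorter, with 14939 RAD21, 10707 SA1 and 6389 SA2 peaks on these chromosomes against 73739, 38153 and 44374 in CHM13 cells.

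**Figure D5:**
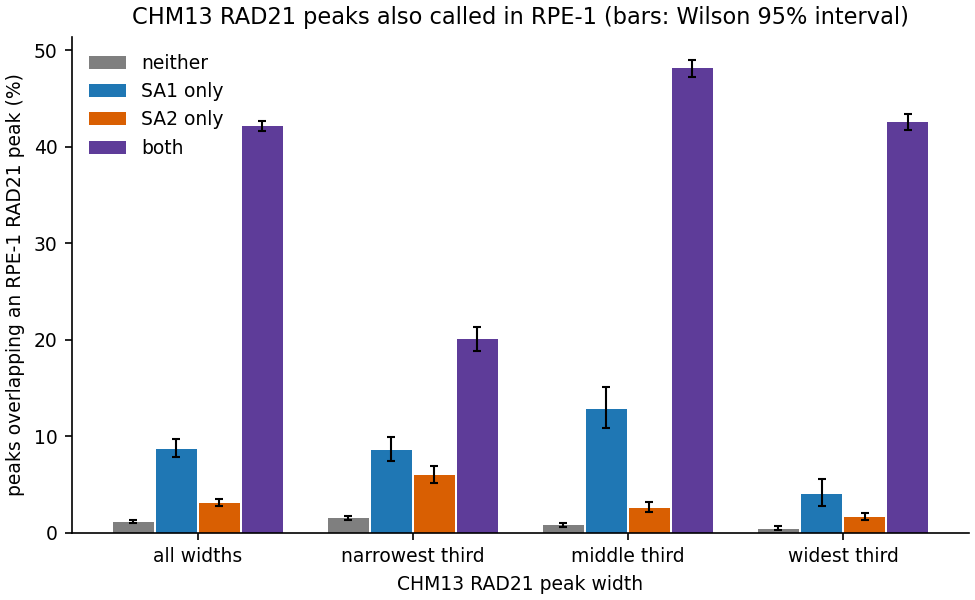
The share of CHM13 RAD21 peaks that overlapped an RPE-1 RAD21 peak (vertical axis, percent), by group and by RAD21 peak width in CHM13 cells (horizontal axis), with Wilson 95% intervals as error bars. Both peaks are highest in every width class, at 20.0%, 48.1% and 42.5%, and neither peaks are at 1.55%, 0.806% and 0.439%.

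The same division of RPE-1 RAD21 peaks gave a similar neither share from other sites. Of the 14939 RPE-1 RAD21 peaks, 38.5% were neither, 32.4% both, 23.9% SA1 only and 5.17% SA2 only by the RPE-1 SA lists. Of the 5749 RPE-1 neither peaks, 95.1% overlapped a CHM13 RAD21 peak, 84.6% a CHM13 SA1 peak and 84.6% a CHM13 SA2 peak. In the other direction, 324 of the 27828 CHM13 neither peaks overlapped an RPE-1 RAD21 peak, 35 (0.126%) an RPE-1 SA1 peak and 6 (0.0216%) an RPE-1 SA2 peak. Of the 4 RPE-1 groups, RPE-1 neither peaks had the lowest share overlapping each CHM13 list. A CHM13 SA1 peak overlapped 97.3% of RPE-1 SA1 only, 97.3% of SA2 only and 98.7% of both peaks. The number and depth of peaks called differ between the lines, and their part in this was not tested.

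The division was repeated on the lists aligned to CHM13 v1.0, the assembly of the line itself. Of 74116 RAD21 peaks 42.9% were both, 38.03% neither, 14.2% SA2 only and 4.93% SA1 only, with median widths of 811, 575, 764 and 612 bp, close to the hg38 values. The RPE-1 division moved more between the builds, to 39.4% both, 37.2% neither, 13.9% SA1 only and 9.45% SA2 only of 16078 peaks.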

How the data were processed

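Cohesin ChIP-seq was analysed from 12 deposited peak lists, 1 for each of 2 cell lines, 3 subunits and 2 builds. The authors aligned reads with bwa, filtered them with samtools, called peaks per replicate with macs, combined the replicates in GenomicRanges and kept loci seen in several replicates; this is stated for CHM13 v1.0, and the settings for hg38 are not given in the sources used here. Lists hold positions only, so each value is a count, share, width or distance without depth or peak height, and no test over replicates was made.

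Peaks were overlapped (1 bp) in Python 3.11.15 with numpy 2.4.6, pandas 2.3.3, numba 0.67.0 and scipy 1.17.1. hg38 sequence was searched in 500 bp at the peak centre on both strands for 10 motifs, counting the CTCF core with up to 1 mismatch. Overlapping motif matches were each counted. A CpG-rich window had over 50% G+C and an observed over expected CpG ratio above 0.6. Genes came from GENCODE 44. Counting and interval code was tested on simulated data. The 142 RAD21 peaks on other hg38 sequences were left out. Genes named were list members (the first 4 by name, and others of the cohesin, trophoblast, AP-1 and neural lists), the 5 widest peaks per group and the longest runs. Of these, 2 are not reported here. Groups, lists and motifs were chosen with earlier results of these data known, and comparisons of AP-1 after the motif shares had been seen.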

Additional observations from a re-analysis of the deposited data

Results flagged for a closer look

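The 142 RAD21 peaks of CHM13 cells on other hg38 sequences, which no comparison used, also fell into the 4 groups, with 70 both (49.3%), 47 neither (33.1%), 14 SA1 only (9.86%) and 11 SA2 only (7.75%).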

How the results depend on the processing

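No paired analysis was possible because the deposited lists pool the replicates, and for the same reason no replicate could be left out. The alternatives numbered 61 for 15 results, of which 32 stayed within the counting interval and 29 moved beyond it. Every difference whose interval lay away from 0 kept its direction. Counting an SA peak within 500 bp gave 37.0% neither, 43.6% both and a gap ratio (neither over both) of 0.756, against 0.718. With RAD21 peaks of at least 400 bp only, neither was 35.2%, SA2 only 14.5% and both 45.2%, the width ratio 0.751 against 0.711, and the gap ratio 0.690. Joining RAD21 peaks closer than 1 kb gave 35.8% neither and 45.0% both. The gene-start difference, neither minus both, was 3.51 points within 5 kb, 2.13 where the peak had to overlap the start and 5.85 in the middle width class. For SA1 only minus SA2 only it was 11.5, 7.93 and 13.3. The CTCF core difference, neither minus both, was -11.5 points for exact matches, -36.4 over whole peaks and -51.2 in the middle width class, and SA1 only minus SA2 only was 6.04 for exact matches and 27.5 in the middle width class. The AP-1 difference, neither minus both, was 31.7 in the middle width class, 22.9 away from gene starts and 17.4 without a CTCF core, and SA2 only minus SA1 only was 29.1 in the middle width class. The RPE-1 RAD21 difference, neither minus both, was -47.3 in the middle width class and -43.3 on CHM13 v1.0. RPE-1 SA1 minus RPE-1 SA2 at SA1 only peaks was 1.94 in the middle width class. At SA2 only peaks it was 0.0480 points on hg38 and -0.248 on CHM13 v1.0, so its direction turned with the build. The cause was not tested. Peak height, which is absent from the lists, limits what can be called neither. Library depth is absent from the lists but reported in the paper. Each CHM13 SA1 and SA2 library had more total reads than any CHM13 RAD21 library. For uniquely mapped reads this held for SA1 but not for SA2. The second RAD21 replicate was much shallower than the others. The part of depth in the neither share was not tested.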
